A study of Drosophila melanogaster with 12 samples.

Results

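*nonstop* mutant glia were compared directly with *sgf11* mutant glia of late *Drosophila melanogaster* larvae, without going through the wild type. The comparison uses 8 of the 12 nuclear RNA-seq libraries of the series, 4 from each mutant, and the 4 wild-type libraries are shown as the common point of departure. Of 15682 genes in the count files, 9966 had over 1 CPM (counts per 1000000 assigned to genes) in at least 4 of the 12 libraries and were tested, and 210 of them differed between the mutants. These 210 genes, their levels in each library and their places on the chromosomes are described here.

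*nonstop* larvae were homozygous for *not02069*, an insertion of a P{PZ} element that carries a *ry+* marker gene, on a chromosome that also has the *ry506* allele. *sgf11* larvae were homozygous for *PBac{RB}CG13379 e01308*, a piggyBac insertion that carries a *w+* marker. Wild-type larvae carried neither insertion, and had the *TM3, Sb1* balancer as the other copy of chromosome 3. All 3 genotypes had a *w* background, the glial driver *repo-GAL4* and *UAS-GFP-Msp300KASH* inserted at attP2, which puts GFP on the nuclear envelope of glia. In the mutants, labelled nuclei came from homozygous larvae, which die as late larvae or early pupae. Nuclei were affinity-enriched from 400 eye-brain complexes per replicate, so each library is a pool of many animals. Both mutated genes, the driver and the reporter lie on chromosome 3, and the mutants were built on different copies of it. Any effect of the loss of one subunit rather than the other therefore cannot be told apart from other differences between those chromosomes.

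The libraries held 7763472 to 11358569 gene counts in *nonstop*, 6913032 to 9824114 in *sgf11* and 8535880 to 11459317 in wild type, so 1 CPM stood for about 6.60 to 11.8 reads. The glial gene *repo* was at 104 to 141 CPM in *nonstop*, 106 to 155 CPM in *sgf11* and 133 to 159 CPM in wild type. The neuronal gene *elav*, named after its values were seen, was also present, at 215 to 271 CPM in *nonstop*, 162 to 225 CPM in *sgf11* and 167 to 221 CPM in wild type. At the share called (FDR under 0.01) over all genes, 2.11%, lists of 9 glial and 14 pan-neuronal markers hold less than 1 called gene, and none of theirs was called. Their median log2 fold changes (*nonstop* over *sgf11*) were -0.10 and 0.02, beside -0.01 for all genes tested. The summed pan-neuronal level was 2859 to 3605 CPM in *nonstop*, 3178 to 4133 CPM in *sgf11* and 1257 to 1724 CPM in wild type. Both mutants lay above wild type in that sum, while at *elav* alone both overlapped wild type. In the lists of glial subtypes, *Indy* was the called gene of 8 in cortex and ensheathing glia (lower in *nonstop*), *pnt* that of 16 in barrier glia (higher in *nonstop*), and none of 9 in astrocyte-like glia was called. In bulk libraries such as these, fewer nuclei of a type and less RNA per nucleus cannot be told apart.

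SAGA is a transcriptional coactivator complex, and its deubiquitinase module removes ubiquitin from histone H2B at transcribed genes. Nonstop is the ubiquitin protease of that module and Sgf11 is a small zinc finger subunit without which the protease is not active. The module also contains E(y)2 and Ataxin-7. In the larval visual system the module is needed in glia, which move into the lamina of the optic lobe and help photoreceptor axons to stop there. The comparison asks which transcripts tell the loss of one subunit from the loss of the other.

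The transcript of each mutated gene was low in its own mutant. *not* (FBgn0013717, on 3L), which encodes Nonstop, was at 11.1, 9.44, 9.08 and 9.51 CPM in *nonstop* glia, against 19.7, 15.8, 14.4 and 19.0 CPM in *sgf11* glia and 24.0 to 29.4 CPM in wild type. The mutants did not overlap, and *sgf11* glia lay between *nonstop* and wild type (log2 fold change -0.82, SE 0.14, FDR = 0.00126 by the quasi-likelihood test of edgeR, used for every FDR given here). The other mutated gene, *Sgf11* (FBgn0036804, also on 3L), was at 3.54, 3.75, 3.58 and 4.59 CPM in *nonstop* glia. In *sgf11* glia 2 reads of it were counted in all. The ratio of *nonstop* to *sgf11* was 63.2 (95% interval of the ratio 17.2 to 527, which covers counting error only), and wild type was at 3.09 to 6.20 CPM. *Atxn7*, the remaining module gene tested, was at 14.4 to 18.05 CPM in *nonstop* and 13.04 to 17.2 CPM in *sgf11* and was not called (log2 fold change 0.14, FDR = 0.632), and *e(y)2* was too low to be tested.

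Of the 9966 genes tested, 82 (0.823%) were higher and 128 (1.28%) were lower in *nonstop* than in *sgf11* at an FDR under 0.01, 2.11% in all. The 4 libraries of one mutant lay wholly above or below those of the other at 206 of the 210 called genes, beside 10.2% of all genes tested. *nonstop* lay above at 81 of the 82 genes called higher, beside 4.71% of all genes tested, and below at 125 of the 128 called lower, beside 5.51%. The genes were called from these same libraries, so this separation is a description and no further support. The 4 called genes whose libraries overlapped were *Eh*, *Muc26B*, *CG31496* and FBgn0036628, named after their values were seen. The median size of a called change was 1.25 on the log2 scale, and 124 of the 210 genes changed over 2-fold, 60 over 4-fold and 34 over 8-fold. With 1 mutant library left out, 122 to 165 genes were called. The count fell to 122 without *sgf11* replicate 3 and to 135 without *nonstop* replicate 4. None of the called genes named here changed direction in any of these fits, and 95 of the 210 were called under each of 6 other tests, scalings and sample choices and with each of the 12 libraries left out.

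**Figure D1:**
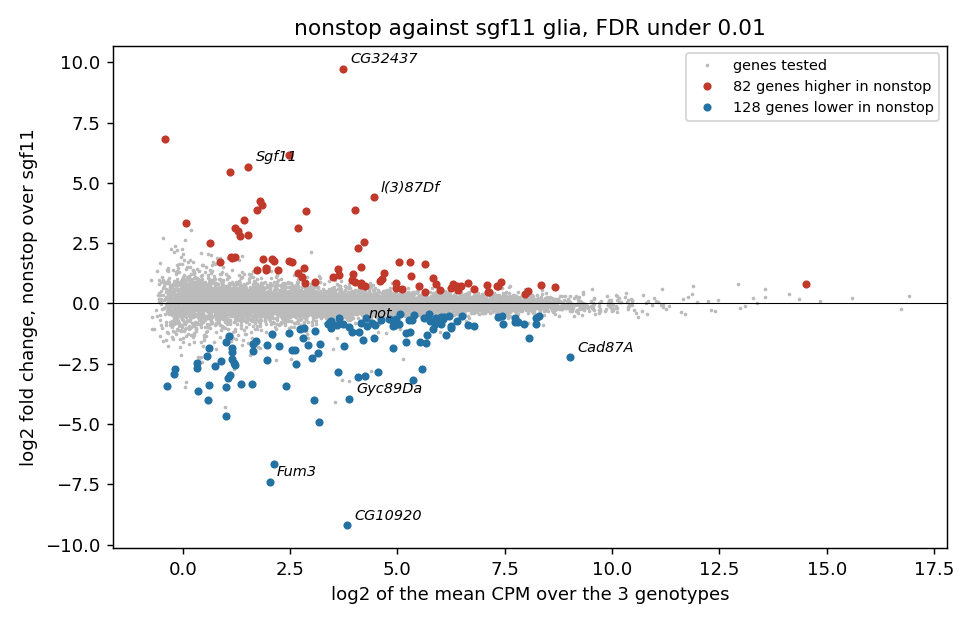
Each point is 1 of the 9966 genes tested, with its level on the x axis (log2 of the mean CPM over the 3 genotypes) and the log2 fold change of *nonstop* over *sgf11* on the y axis. Red points are the 82 genes higher in *nonstop*, blue points the 128 genes lower in *nonstop* and grey points the genes that were not called; *CG32437* at 9.73 and *CG10920* at -9.20 lie at the ends.

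Several genes were expressed in *nonstop* glia and nearly silent in *sgf11* glia. *CG32437* on arm 3L was at 39.4, 29.7, 42.1 and 42.6 CPM in *nonstop*, while a single read was counted in *sgf11*. Its wild-type level, 1.43 to 1.73 CPM, lay between the mutants. The ratio of *nonstop* to *sgf11* was 1249 (95% counting interval 224 to 49380), and the gene had the lowest p of all (FDR = 5.43e-12). Its direct neighbour *CG32440*, read from the same strand, was at 16.7, 9.86, 18.3 and 19.5 CPM in *nonstop*, against 0.553, 0, 0.147 and 0 CPM in *sgf11* and 0.182 to 0.768 CPM in wild type (log2 fold change 6.14). It was over 1 CPM in the *nonstop* libraries alone, and so was tested only through the group where it is high. Of 11 such genes among those tested, 3 were called. Of the pair, *CG32440* in *sgf11* overlapped the wild-type range, while *CG32437* was below it.

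Other genes were near the wild-type level in *nonstop* and low in *sgf11*. *CG14715* (arm 3R) was at 26.0, 26.4, 18.3 and 17.7 CPM in *nonstop*, against 1.84, 1.06, 2.05 and 0.905 CPM in *sgf11* and 21.5 to 28.5 CPM in wild type (log2 fold change 3.87, SE 0.23, FDR = 6.49e-09). *CG7900* (3R) was at 11.4 to 12.9 CPM in *nonstop*, 0.147 to 1.94 CPM in *sgf11* and 7.82 to 11.01 CPM in wild type, with an FDR of 0.155 for *nonstop* against wild type. At *CG18577* (3R) *nonstop* was below wild type as well, with 1.61 to 2.201 CPM in *nonstop*, a single read in *sgf11* and 2.91 to 6.14 CPM in wild type. The *nonstop* to *sgf11* ratio was 61.3 (95% counting interval 10.6 to 2459). These genes lie apart from each other on 3R.

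**Figure D2:**
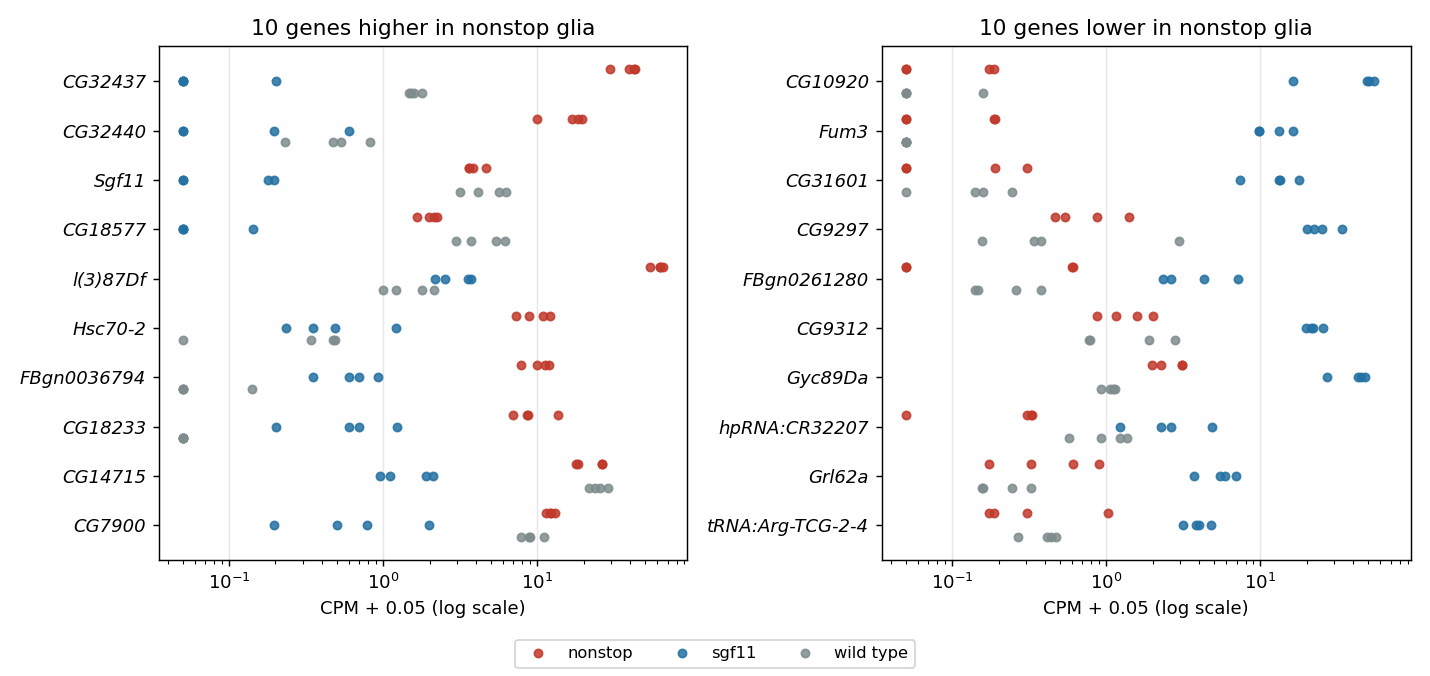
CPM of the 10 highest (left) and 10 lowest (right) fold changes among called genes whose mutant libraries did not overlap and whose mean over the 12 libraries was above 1 CPM, on a log axis after adding 0.05. Each point is a library, with *nonstop* in red, *sgf11* in blue and wild type in grey; at *CG14715* and *CG7900* wild type lies near *nonstop*, and at *CG9312* and *Grl62a* wild type overlaps *nonstop* and *sgf11* stands apart.

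The lowest fold changes belonged to genes that were on in *sgf11* glia and nearly absent from the other genotypes. *CG10920* (X) had 2 reads in all in *nonstop*, against 50.7, 49.1, 54.2 and 16.3 CPM in *sgf11* and 1 read in wild type. The level in *sgf11* over that in *nonstop* was 737 (95% counting interval 204 to 6091). *Fum3* (3L), a fumarase gene, had 2 reads in *nonstop*, against 9.78, 13.2, 16.1 and 9.70 CPM in *sgf11* and none in wild type, and *sgf11* over *nonstop* was 203 (55.9 to 1685). *CG31601* (2L) was at 0 to 0.255 CPM in *nonstop* and at 17.8, 7.27, 13.3 and 13.1 CPM in *sgf11* (log2 fold change -6.65), and wild type was at 0 to 0.193 CPM. These 3 genes lie on 3 different chromosomes. They were over 1 CPM in the 4 *sgf11* libraries and in no other, so they were tested only through the group where they are high and had to differ, and their calls are no support beyond the values given. Of 17 such genes among those tested, 12 were called.

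*Gyc89Da* and *Gyc89Db*, adjacent genes on 3R that encode atypical soluble guanylyl cyclase subunits, were both lower in *nonstop*. *Gyc89Da* was at 3.06, 2.22, 1.93 and 3.06 CPM in *nonstop*, against 43.1, 44.6, 47.6 and 26.8 CPM in *sgf11* and 0.869 to 1.10 CPM in wild type (log2 fold change -3.95, SE 0.20, FDR = 7.87e-10). *Gyc89Db* was at 2.44 to 4.17 CPM in *nonstop*, 6.15 to 8.66 CPM in *sgf11* and 1.32 to 1.79 CPM in wild type (log2 fold change -1.29, FDR = 0.00161). Both mutants were above wild type at both genes, with *sgf11* the higher. *Gyc89Db* was named after its values were seen. Since the copies are related, the count of each may be affected by reads that match both.

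*Cad87A*, a cadherin gene on 3R, was the most abundant of the genes with the 6 lowest p-values. It was at 252, 267, 232 and 226 CPM in *nonstop*, against 1103, 1301, 1247 and 894 CPM in *sgf11* (log2 fold change -2.22, SE 0.12, FDR = 1.37e-09). Wild type was at 185 to 193 CPM, so *sgf11* stood apart from both other genotypes. *Lasp*, which encodes a LIM and SH3 domain protein that binds actin, showed the other arrangement. It was at 2.08, 1.25, 2.48 and 4.67 CPM in *nonstop*, against 24.0, 25.0, 22.4 and 20.7 CPM in *sgf11* and 22.1 to 31.1 CPM in wild type (log2 fold change -3.05, SE 0.24, FDR = 2.34e-07), so here *nonstop* stood apart. *Lasp* was chosen after its values were seen.

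An ID without a name in the annotation used, FBgn0264718, was among the 6 lowest p-values, at 5.95 to 9.30 CPM in *nonstop*, 43.7 to 59.9 CPM in *sgf11* and 11.6 to 12.4 CPM in wild type. Small RNA genes were also among the lowest fold changes. *hpRNA:CR32207*, a hairpin RNA gene on 3L, was at 0 to 0.278 CPM in *nonstop* and 1.17 to 4.78 CPM in *sgf11*, with wild type at 0.526 to 1.32 CPM. *tRNA:Arg-TCG-2-4*, over 1 CPM in the *sgf11* libraries alone, was at 0.122 to 0.972 CPM in *nonstop* and 3.10 to 4.70 CPM in *sgf11*. The count of that tRNA gene may be affected by reads that also match its near-identical copies.

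The called genes were not spread evenly over the chromosomes. Chromosome 3 held 126 of the 185 called genes placed on X, 2, 3 or 4 (68.1%), while it held 44.7% of the 9444 genes tested there. On arm 3L 76 of 1905 genes were called (3.99%), 24 higher and 52 lower in *nonstop*, and on 3R 50 of 2320 (2.16%), 25 in each direction. The other arms had 0.637% of genes called on X (10 of 1569), 1.35% on 2L (23 of 1706) and 1.24% on 2R (23 of 1861), and chromosome 4 had 3 of 83. Beside these stands 2.11% over all genes tested. Another 19 called genes have an ID that the annotation does not place, and the rest lie on the Y, in the mitochondrial genome or on unplaced scaffolds. Chromosome 3 held 77.0% of the placed calls without *sgf11* replicate 3.

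The share of all gene counts was also compared, for the arms and for genes not placed. The share of gene counts from 3L was 8.13% to 9.06% in *nonstop*, 8.49% to 10.1% in *sgf11* and 9.18% to 10.5% in wild type, and from 3R it was 11.6% to 13.6% in *nonstop*, 11.8% to 13.3% in *sgf11* and 10.7% to 12.9% in wild type. *nonstop* and *sgf11* overlapped for both arms (exact two-sided permutation test over 4 against 4 libraries, p = 0.229 and 0.714, adjusted p = 0.381 and 0.794 over 10 such shares). IDs not placed held 30.8% to 32.9% of counts in *nonstop*, 26.8% to 29.7% in *sgf11* and 28.2% to 34.5% in wild type. The Y chromosome held 0.00110% to 0.00300% in *nonstop*, 0.00438% to 0.00803% in *sgf11* and 0.000691% to 0.00139% in wild type. In both of these the mutants did not overlap (exact permutation p = 0.0286, the smallest this design allows, and adjusted p = 0.143). The median log2 fold change was -0.03 on 3L and -0.02 on 3R.

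When genes tested were counted in bins of 100 along each arm, 25 of 96 bins had no called gene, 66 had 1 to 4 and 5 had 5 or more. The densest bin, the third of 3L, had 15 called genes, of which 14 were lower in *nonstop*. The 15th bin of 3L, which contains *not* and *Sgf11*, had 10, with 5 in each direction. The eighth bin of 3R, which contains *ry*, had 9, with 6 higher and 3 lower. The 18th bin of 3L had 7 and the 17th bin of 2L had 5.

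**Figure D3:**
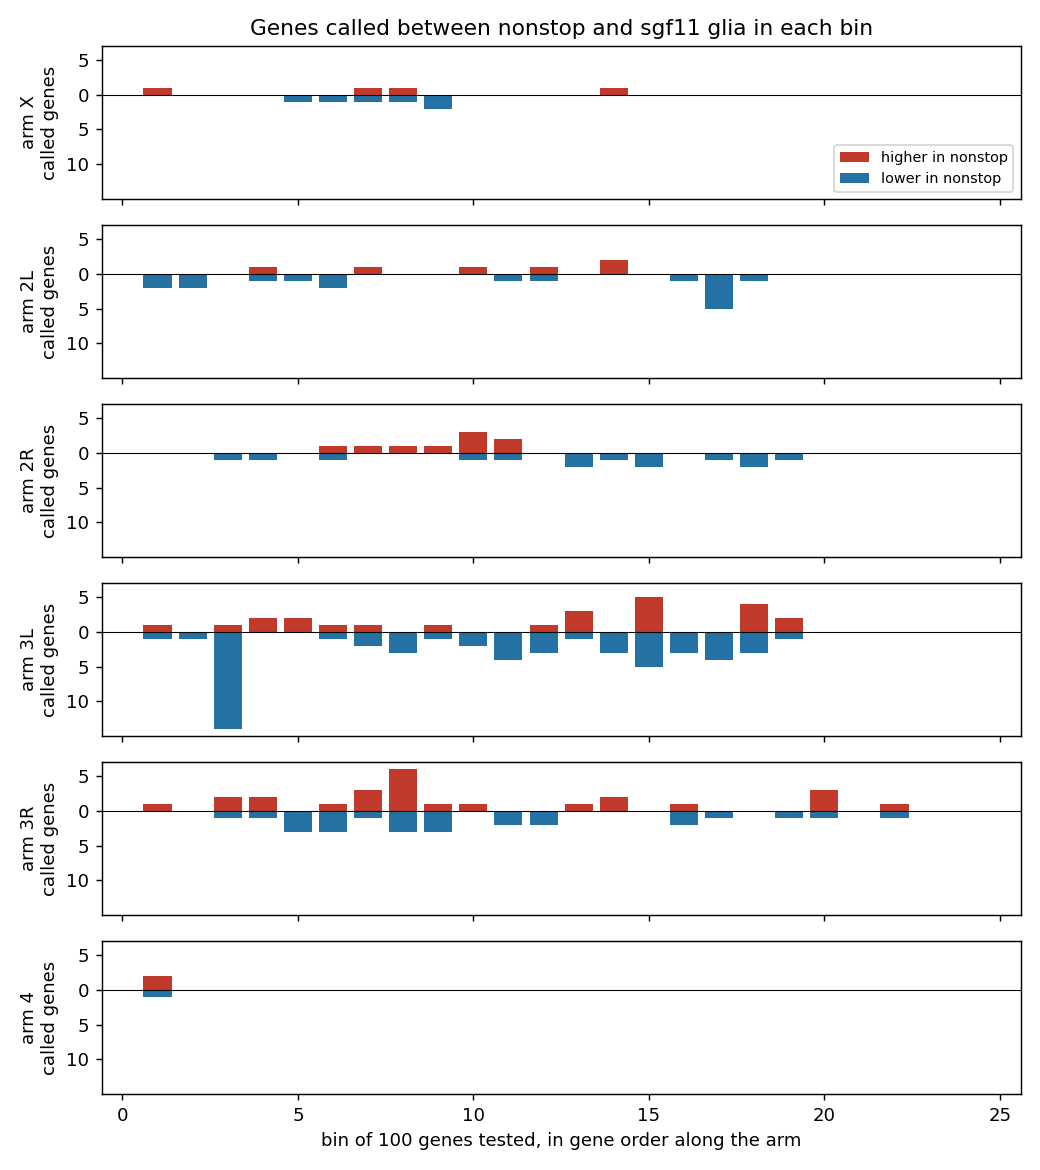
Bars give the number of genes called between *nonstop* and *sgf11* in consecutive bins of 100 genes tested along each arm, upward for genes higher in *nonstop* (red) and downward for genes lower in *nonstop* (blue). The third bin of 3L, with 14 genes lower in *nonstop*, is the tallest, and no bin of X, 2L or 2R exceeds 5.

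Called genes also stood side by side. Of the 185 placed called genes, 43 (23.2%) had a direct neighbour among the genes tested that was called in the same direction, in 18 groups, and 37 of the 43 were on chromosome 3. These groups include the mutated gene *Sgf11*, the marker gene *ry*, the related guanylyl cyclase pair, and *Indy* with the noncoding RNA gene inside it. Such cases were not left out of the count. Whether the share exceeds that of genes called without regard to position was not tested, so it is a description. Runs of at least 3 called genes of one direction, with no more than 5 other genes between neighbours, numbered 6, all on chromosome 3. They include *CG18233*, *bora*, *CR34254* and the mutated gene *Sgf11*, higher in *nonstop*, in a stretch where 4 of 11 genes tested were below 0. They also include the genes around the marker gene *ry*. The definition of a run was chosen after the values were seen.

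*not* and *Sgf11* lie close together on 3L, with 7 genes tested between them, so each mutant carries its insertion in the same neighbourhood. Among the 107 genes tested within 50 genes of either locus, the loci themselves left out, 4 were higher and 4 lower in *nonstop*. That is 7.48%, beside 3.99% on 3L and 2.11% over all genes tested. Within 100 genes of either locus 13 of 207 were called (6.28%). Within 50 genes of *ry* on 3R, 7 of 100 were called (7.0%). *ry* is the marker of the P{PZ} insertion, so that window also differs in genotype between the mutants and is no independent comparison. Just before *not*, *CG18233* was at 8.56, 13.5, 6.88 and 8.66 CPM in *nonstop*, against 0.553, 0.152, 1.17 and 0.646 CPM in *sgf11*, and had no count in wild type (log2 fold change 3.87, FDR = 2.06e-05). *bora*, which starts next to *not* and is read the other way, encodes an activator of the mitotic kinase Aurora A. It was at 6.05 to 7.33 CPM in *nonstop*, 2.34 to 2.73 CPM in *sgf11* and 1.37 to 3.51 CPM in wild type (log2 fold change 1.40, FDR = 0.00244, and 0.0110 without *sgf11* replicate 3). *CG32199*, between *CG18233* and *not*, was at 0 to 1.61 CPM in *nonstop* and 0.776 to 1.67 CPM in *sgf11* and was not called, and neither was *MYPT-75D*, the gene after *bora*, a myosin phosphatase targeting gene (log2 fold change 0.46, FDR = 0.0151).

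On the *Sgf11* side, *CR34254*, the gene just before *Sgf11*, was at 1.34 to 1.87 CPM in *nonstop* and had no count in any *sgf11* library, at least 17.0-fold higher in *nonstop* (floor of 3 counts over the *sgf11* libraries). Wild type was at 0.273 to 1.26 CPM. *GNBP1*, *CG32202* and *Chmp1*, the other nearest genes, were not called, with log2 fold changes of 0.21, 0.43 and -0.33. Farther out, *ftz-f1*, a nuclear receptor of the ecdysone cascade, was at 109 to 115 CPM in *nonstop*, against 66.2 to 82.1 CPM in *sgf11* and 36.4 to 51.8 CPM in wild type (log2 fold change 0.63, FDR = 0.00161). *Indy*, a citrate transporter, was at 89.96 to 141 CPM in *nonstop*, 157 to 232 CPM in *sgf11* and 202 to 227 CPM in wild type (log2 fold change -0.86, FDR = 0.000779). *lncRNA:CR32027*, which lies inside *Indy* on the other strand, was lower in *nonstop* too (log2 fold change -2.33). Strand was not used in counting, so *Indy* reads that fall on *lncRNA:CR32027* cannot be told apart from reads of *lncRNA:CR32027*. *CR43086* and the cytochrome P450 gene *Cyp312a1* were the remaining called genes within this distance. Their log2 fold changes were -2.60 and -1.84, and *Cyp312a1* lost the call with any of 6 mutant libraries left out (*nonstop* replicates 1, 2 and 4, *sgf11* replicates 1, 3 and 4; largest FDR = 0.0231).

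A run of 5 genes higher in *nonstop* lay around *ry* on 3R. *ry* encodes xanthine dehydrogenase and is both a resident gene and the marker of the P{PZ} insertion. It was at 82.01, 104, 74.96 and 79.6 CPM in *nonstop*, against 19.2, 38.6, 25.3 and 27.0 CPM in *sgf11* and 27.9 to 46.6 CPM in wild type (log2 fold change 1.64, SE 0.18, FDR = 2.09e-05). Reads from the marker and from the *ry506* allele cannot be told apart in a count per gene. Whether the marker fragment also includes neighbours of *ry* is not given in the sources used here. If it does, their reads cannot be told apart from those of the resident genes either. *l(3)87Df*, directly before *ry*, was at 62.6, 62.6, 65.6 and 53.9 CPM in *nonstop*, against 2.12, 3.64, 3.52 and 2.46 CPM in *sgf11* and 0.946 to 2.08 CPM in wild type (log2 fold change 4.41, SE 0.18, FDR = 4.09e-11). On the other side, *CG11668* was at 8.53 to 11.5 CPM in *nonstop*, 2.31 to 6.34 CPM in *sgf11* and 5.79 to 7.57 CPM in wild type.

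*CG11670*, next to it and named after its values were seen, was at 1.53 to 1.78 CPM in *nonstop* and 0.922 to 1.42 CPM in *sgf11* and was not called. *Hsc70-2*, a heat shock cognate chaperone gene, was at 11.98, 7.22, 8.80 and 10.8 CPM in *nonstop*, against 0.184, 0.303, 0.440 and 1.16 CPM in *sgf11* and 0 to 0.439 CPM in wild type (log2 fold change 4.23, FDR = 6.69e-06). *CG31157*, the last of the run, was at 5.91 to 8.66 CPM in *nonstop*, 0.277 to 1.67 CPM in *sgf11* and 0 to 0.546 CPM in wild type. All 5 genes of the run kept the call with each of the 12 libraries left out in turn. Of the other marker and transgene genes, *w*, *y*, *repo* and *Msp300* were not called (log2 fold changes of -0.04, -0.17, -0.06 and 0.12).

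The longest run lay in the third bin of 3L and was lower in *nonstop*. From *CG42841* to *ACXD* it spans 19 genes tested, of which 13 were called and 18 had a log2 fold change below 0. The run includes *Grl62a*, *Grl62b* and *Grl62c*, members of the gustatory receptor-like family, *Oseg2*, which encodes a protein of intraflagellar transport in cilia, and *ACXD*, an adenylyl cyclase gene. Summed over the 13 genes the level was 16.4, 14.995, 13.6 and 20.05 CPM in *nonstop*, against 84.3, 82.9, 82.9 and 69.8 CPM in *sgf11* and 10.2 to 12.5 CPM in wild type. *nonstop* lay just above wild type, and *sgf11* well above both. At *Grl62a* the levels were 0.122 to 0.849 CPM in *nonstop* and 3.64 to 6.85 CPM in *sgf11* (log2 fold change -3.47), and at *CG15822*, the most abundant member, 6.53 to 8.92 CPM in *nonstop* and 20.3 to 27.7 CPM in *sgf11* (log2 fold change -1.78, FDR = 6.71e-07).

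Of these 13 genes, 4 (*Grl62a*, *Grl62b*, *CR15821* and *CG15820*) were over 1 CPM in the 4 *sgf11* libraries and in no other library, so they entered the test only through the group where they were high. They drop out of any fit with 1 *sgf11* library left out, since 4 libraries over 1 CPM are required. In those fits 7 to 8 of the 9 remaining genes were called, with 7 without *sgf11* replicate 3, and 10 to 12 of the 13 were called with a *nonstop* library left out. *CR15821*, *CG15820*, *CG15878*, *CG8960* and *Oseg2* lost the call in at least 1 of these fits (largest FDR = 0.0236): without *nonstop* replicate 1, 2 or 4 for *CR15821*, 1 or 4 for *CG15820* and 2, 3 or 4 for *CG15878*, and without *sgf11* replicate 2, 3 or 4 for *CG15878*, 3 for *CG8960* and 1 for *Oseg2*.

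**Figure D4:**
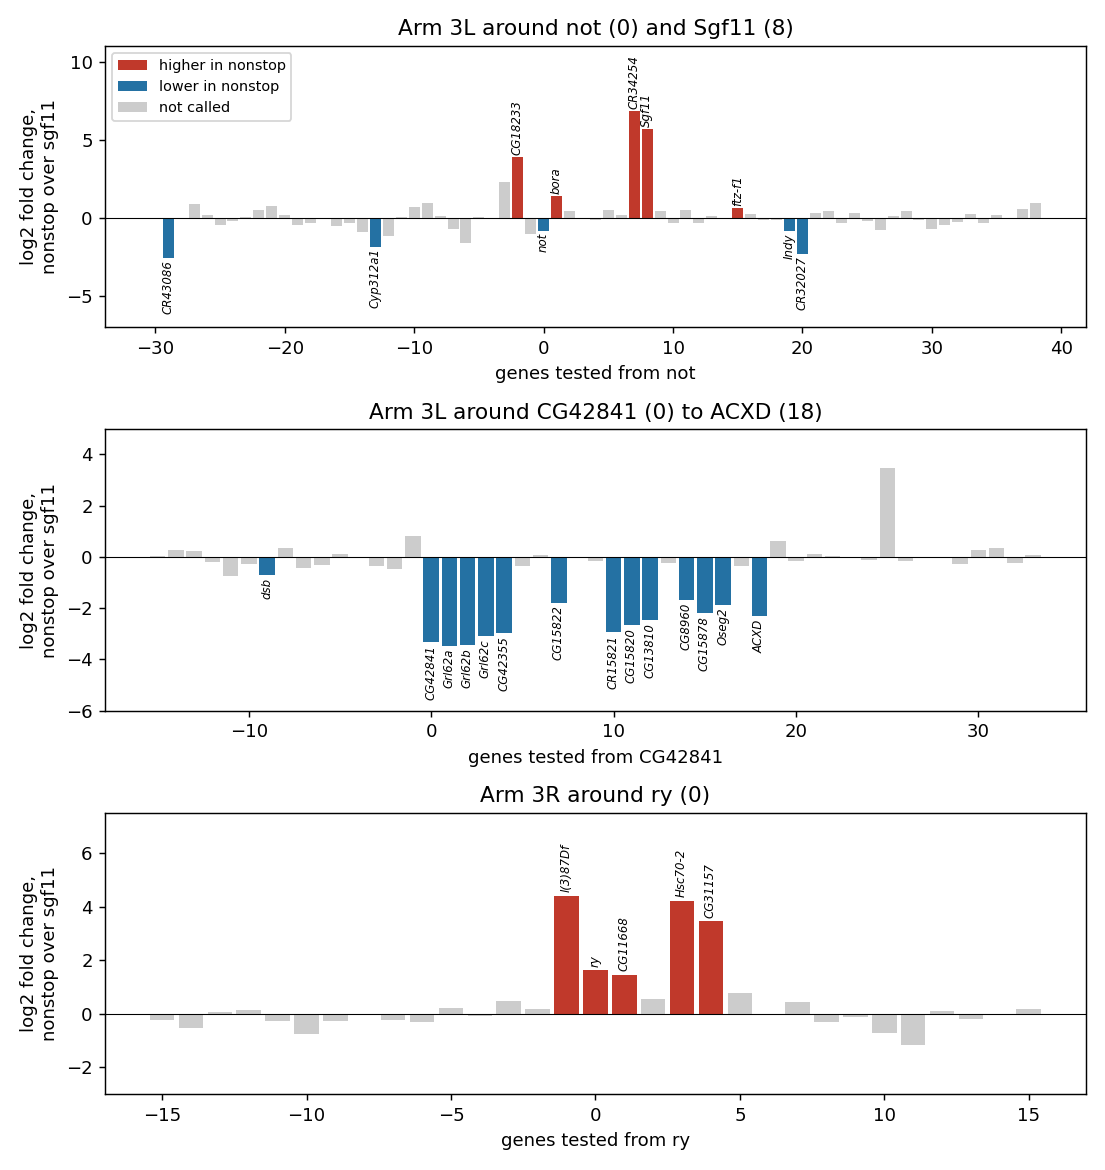
Bars give the log2 fold change of *nonstop* over *sgf11* for genes tested in 3 stretches, in gene order counted from *not*, *CG42841* and *ry*. Red bars are called and higher in *nonstop*, blue bars are called and lower in *nonstop* and grey bars are not called; the 13 called genes from *CG42841* to *ACXD* all point down, and the 5 called genes around *ry* all point up.

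A run of 3 adjacent genes on 3R was lower in *nonstop*. *CG9312* was at 1.96, 1.11, 0.825 and 1.53 CPM in *nonstop*, against 19.8, 25.5, 22.0 and 21.3 CPM in *sgf11* and 0.728 to 2.74 CPM in wild type (log2 fold change -3.98, FDR = 1.54e-07). *Cht5*, a chitinase gene of the moulting cycle, was at 9.41, 9.997, 5.50 and 12.5 CPM in *nonstop*, against 82.5, 91.8, 102 and 63.4 CPM in *sgf11* and 22.0 to 35.1 CPM in wild type (log2 fold change -3.16, FDR = 1.92e-08). *CG9297* was at 0.417 to 1.36 CPM in *nonstop*, 20.04 to 33.7 CPM in *sgf11* and 0.105 to 2.91 CPM in wild type. The call of all 3 held with each library left out. The other runs were short and changed less. *Spt20*, *bru3* and *CG8745*, and *Targ2*, *Eip78C* and *CG43218*, all lower in *nonstop*, lay on 3L. Of these, *Targ2* lost the call without *nonstop* replicate 1, 2 or 4 or *sgf11* replicate 1, 2 or 3 (largest FDR = 0.0277), and *Spt20* and *Eip78C* are described with their gene groups.

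Each mutant was also tested against wild type, in the same fit and with shared wild-type libraries. Of the 210 genes, 122 (58.1%) passed in *nonstop* and 140 (66.7%) in *sgf11*, while over all genes tested 35.7% passed in *nonstop* and 30.5% in *sgf11*. A gene that differs between the mutants has to differ from wild type in at least 1 of them, so these shares are a description. Among the 82 genes higher in *nonstop*, 37 passed in *nonstop* and not in *sgf11*, all above wild type, and 15 passed in *sgf11* and not in *nonstop*, all below wild type. Among the 128 genes lower in *nonstop*, 58 passed in *sgf11* and not in *nonstop*, all above wild type, and 18 passed in *nonstop* and not in *sgf11*, all below it. Of the rest, 60 passed in both mutants in the same direction, 7 in both in opposite directions and 15 in neither.

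**Figure D5:**
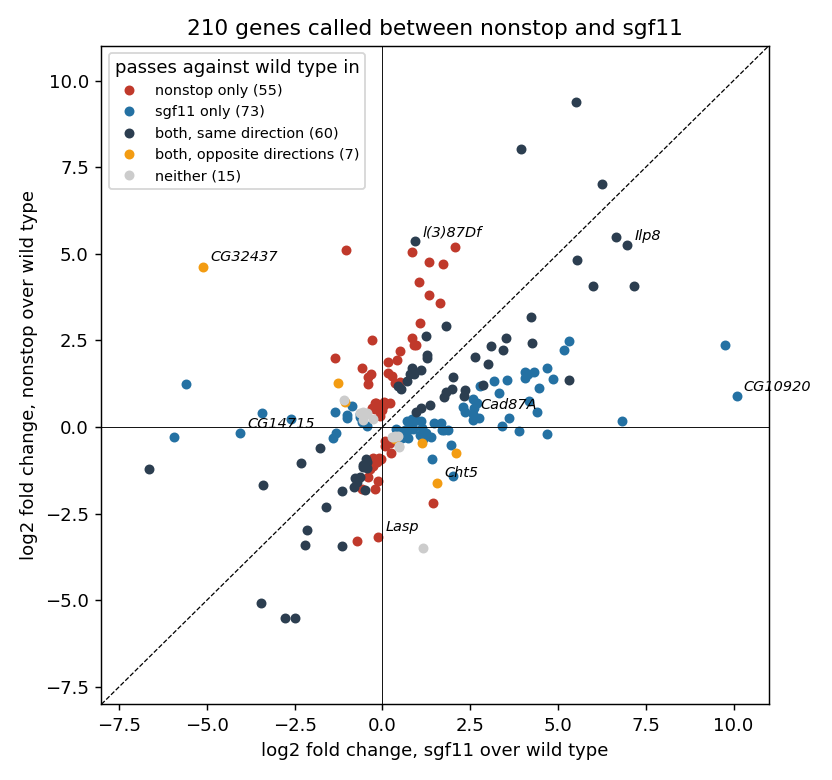
Each point is 1 of the 210 called genes, with the log2 fold change of *sgf11* over wild type on the x axis and of *nonstop* over wild type on the y axis, and both axes share the wild-type libraries. Colours give the comparison with wild type in which the gene passed, the dashed line marks equal values, and *CG32437*, at -5.11 and 4.62, lies farthest into the quadrant of opposite directions.

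The 7 genes that moved in opposite directions were *CG32437*, *CG11594*, *IntS12*, *CG4511*, *RhoL*, *Cht5* and FBgn0264718. *CG11594* (3L) was at 40.8, 47.6, 26.0 and 27.7 CPM in *nonstop*, against 4.33, 9.09, 5.86 and 5.30 CPM in *sgf11*, with wild type between them at 13.04 to 17.1 CPM. *IntS12*, a subunit gene of the Integrator complex, which cleaves nascent RNAs, was at 7.47 to 10.6 CPM in *nonstop*, 1.76 to 3.03 CPM in *sgf11* and 3.996 to 7.46 CPM in wild type. *RhoL*, a small GTPase gene, was at 19.2, 17.9, 19.8 and 24.7 CPM in *nonstop*, against 62.2, 66.7, 60.7 and 58.1 CPM in *sgf11* and 22.9 to 33.1 CPM in wild type. *CG4511* spanned a smaller range, with 28.4 to 34.8 CPM in *nonstop*, 47.7 to 53.035 CPM in *sgf11* and 36.6 to 41.6 CPM in wild type. The *nonstop* and wild-type libraries overlapped at *RhoL* and not at the other 6 genes, and *sgf11* and wild type did not overlap at any of the 7.

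Other genes moved the same way in both mutants but by different amounts. Apart from *Ilp8*, these were chosen after their values were seen. *Ilp8*, a relaxin-like hormone that disturbed imaginal discs release and that delays metamorphosis, was at 5.50, 3.33, 5.78 and 6.37 CPM in *nonstop*, against 14.2, 20.2, 10.1 and 25.1 CPM in *sgf11* and 0 to 0.219 CPM in wild type (log2 fold change -1.71, SE 0.27, FDR = 0.000810). *ZnT77C*, a zinc transporter gene, was at 139 to 245 CPM in *nonstop*, 456 to 573 CPM in *sgf11* and 89.5 to 115 CPM in wild type. *CG9416* (2R) was at 2.08 to 3.19 CPM in *nonstop* and 12.7 to 24.6 CPM in *sgf11*, with wild type far above at 98.3 to 153 CPM. *CG5002* (2R) had the same order, with 0.688 to 1.25 CPM in *nonstop*, 4.65 to 12.1 CPM in *sgf11* and 37.0 to 61.0 CPM in wild type. *CG7884* (X) was at 19.0 to 43.7 CPM in *nonstop*, 5.53 to 12.6 CPM in *sgf11* and 70.7 to 95.3 CPM in wild type, so there *sgf11* was the farther from wild type.

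The next genes passed against wild type in 1 mutant alone, and were picked singly after their values were seen. *DAT*, the dopamine transporter gene, was at 26.03 to 39.8 CPM in *nonstop*, 7.24 to 17.9 CPM in *sgf11* and 6.73 to 10.5 CPM in wild type (log2 fold change 1.52, FDR = 0.000262). *Notum*, which encodes an enzyme that inactivates Wnt ligands, was at 22.3 to 33.04 CPM in *nonstop*, 9.82 to 13.2 CPM in *sgf11* and 7.57 to 11.2 CPM in wild type. *pbl*, the RhoGEF gene needed for cytokinesis, and the receptor tyrosine kinase gene *Tie* were higher in *nonstop* as well (log2 fold changes 0.87 and 1.85). On the other side, *Dronc*, the initiator caspase gene, was at 16.8 to 21.1 CPM in *nonstop*, 29.9 to 40.9 CPM in *sgf11* and 34.8 to 50.3 CPM in wild type (log2 fold change -0.86, FDR = 0.000785). *Timp*, an inhibitor of matrix metalloproteinases, was at 15.8 to 23.7 CPM in *nonstop*, 45.4 to 61.7 CPM in *sgf11* and 55.1 to 76.2 CPM in wild type. *Mical*, which oxidizes actin downstream of plexin in axon guidance, was at 214 to 248 CPM in *nonstop*, 333 to 440 CPM in *sgf11* and 222 to 306 CPM in wild type (log2 fold change -0.84, FDR = 0.000200).

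Over 40 gene lists, 44 of 962 members tested were called (4.57%, each gene counted once), beside 2.11% over all genes tested, and 20 lists had no called member. The lists were chosen with earlier results of these data known. At 2.11% a list of under 40 genes holds less than 1 called gene, so a count of 0 in such a list says nothing about its members. Of 15 SAGA subunit genes outside the deubiquitinase module, 1 was called: *Spt20*, at 30.4 to 35.4 CPM in *nonstop* and 44.0 to 48.5 CPM in *sgf11* (log2 fold change -0.47, FDR = 0.00673), a call that was lost with any mutant library left out and without wild-type replicate 2 or 4, 10 of 12 fits (largest FDR = 0.0329). None of 10 genes of H2B ubiquitination and its removal outside SAGA was called (median log2 fold change 0.00). None of 36 axon guidance genes, 28 cell cycle genes and 80 cytosolic ribosomal protein genes was called, beside 2.11% over all genes tested, and their medians were 0.08, -0.01 and -0.11.

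All 31 proteasome genes had a log2 fold change below 0 (median -0.33, beside -0.01 for all genes tested), and none was called. Their summed level was 1070 to 1362 CPM in *nonstop*, 1438 to 1593 CPM in *sgf11* and 2398 to 3055 CPM in wild type. The mutants did not overlap (exact two-sided permutation test over 4 against 4 libraries, p = 0.0286, the smallest this design allows), but the adjusted p over the 40 lists was 0.127. In the autophagy and ubiquitin list, 2 of 29 genes were called and both were lower in *nonstop*, beside 1.28% called lower over all genes tested. *Ubi-p5E*, a polyubiquitin gene, was at 33.9 to 40.9 CPM in *nonstop*, 58.0 to 73.3 CPM in *sgf11* and 55.5 to 89.1 CPM in wild type (log2 fold change -0.87, FDR = 0.000985). *Cul2*, a ubiquitin ligase scaffold, had a log2 fold change of -0.62 (FDR = 0.00216, and up to 0.0115 with *nonstop* replicate 1 or *sgf11* replicate 1 or 3 left out). Its mean was 323 CPM in *nonstop*, 497 CPM in *sgf11* and 79.9 CPM in wild type, so *Cul2* was above wild type in both mutants.

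Of 22 ecdysone response genes, 2 were higher and 1 was lower in *nonstop* (median -0.03), beside 0.823% higher and 1.28% lower over all genes tested. Besides *ftz-f1*, *Eip63E*, a cyclin-dependent kinase gene, was at 226 to 263 CPM in *nonstop*, 121 to 138 CPM in *sgf11* and 132 to 167 CPM in wild type (log2 fold change 0.90, FDR = 9.54e-06). *Eip78C*, a nuclear receptor gene, was at 2.201 to 5.35 CPM in *nonstop*, 7.76 to 10.4 CPM in *sgf11* and 33.8 to 48.2 CPM in wild type (log2 fold change -1.19, FDR = 0.00401). The call of *Eip78C* was lost without *nonstop* replicate 1 or 3 or without *sgf11* replicate 1 (largest FDR = 0.0206). *ftz-f1* did not pass with library sizes in place of TMM factors (FDR = 0.0307).

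Of 57 cytochrome P450 genes, which act in detoxification and hormone metabolism, 3 were higher and 2 lower in *nonstop* (median 0.11), beside 0.823% higher and 1.28% lower over all genes tested. *Cyp313b1* was at 19.1, 26.1, 10.2 and 11.3 CPM in *nonstop*, against 2.03, 1.52, 1.76 and 2.07 CPM in *sgf11* and 0.676 to 1.05 CPM in wild type (log2 fold change 3.14, FDR = 2.10e-06). *Cyp6a20* was at 19.4 to 23.7 CPM in *nonstop*, 8.15 to 11.97 CPM in *sgf11* and 1.79 to 3.73 CPM in wild type, and *Cyp317a1*, the next gene tested, was higher as well (log2 fold change 2.98), a call lost without *nonstop* replicate 2 or *sgf11* replicate 1 (largest FDR = 0.0107). Of 27 UDP-glycosyltransferase and esterase genes 1 was called, beside 2.11% over all genes tested. It was *alpha-Est7*, a carboxylesterase gene, at 5.23 to 7.56 CPM in *nonstop* and 1.20 to 2.59 CPM in *sgf11* (log2 fold change 1.84, FDR = 0.00101). Of 31 glutathione S-transferase genes, *GstD1* was higher and *GstE1* lower in *nonstop*, beside 0.823% higher and 1.28% lower over all genes tested. Their log2 fold changes were 0.40 and -0.79, and neither call was stable. That of *GstD1* was lost without *nonstop* replicate 1, 2 or 4 or any *sgf11* library, and that of *GstE1* without *nonstop* replicate 3 or 4 or *sgf11* replicate 2 or 3 (largest FDR = 0.0237).

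In the heat shock and chaperone list, 3 of 27 genes were called (median -0.02), beside 2.11% over all genes tested. *Hsp70Bc* was at 42.8, 52.3, 85.1 and 77.5 CPM in *nonstop*, against 20.5, 22.0, 23.3 and 13.3 CPM in *sgf11* and 9.83 to 16.5 CPM in wild type (log2 fold change 1.71, FDR = 7.87e-05). *Hsp70Ba*, another member of the same cluster of stress-induced chaperone genes, went the other way at low level, with 0.367 to 0.688 CPM in *nonstop* and 1.67 to 4.25 CPM in *sgf11*. The copies are nearly identical, so the count of each may be affected by reads that match several copies.

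*Lsp1alpha*, *Lsp1beta* and *Lsp2*, larval serum genes for storage proteins made by the fat body, were lower in *nonstop*. *Lsp1beta* was at 12.8, 8.61, 13.1 and 19.5 CPM in *nonstop*, against 34.3, 23.8, 52.6 and 35.9 CPM in *sgf11* and 11.5 to 21.1 CPM in wild type (log2 fold change -1.42, FDR = 0.00244). *Lsp2* and *Lsp1alpha* had log2 fold changes of -1.51 and -1.66. All 3 calls depended on single libraries. That of *Lsp1beta* was lost without *nonstop* replicate 1 or *sgf11* replicate 3, and that of *Lsp2* without *nonstop* replicate 1 or 2 or *sgf11* replicate 1 or 3. *Lsp1alpha* kept it in 4 of 12 fits, those without *sgf11* replicate 1 or 2 or wild-type replicate 1 or 2 (largest FDR = 0.0414). Of 13 fat body genes tested these 3 were the only ones called, beside 1.28% called lower over all genes tested. The median of the 13 was -0.67, with 7 below 0 and 6 above 0. The summed level of the list ran the other way, at 17027 to 26754 CPM in *nonstop*, 12365 to 16517 CPM in *sgf11* and 3076 to 3485 CPM in wild type, since it is set by members that were not called.

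Among 28 neuropeptide genes, 3 were lower in *nonstop* (median -0.20), beside 1.28% over all genes tested. Besides *Ilp8* these were *Nplp1*, at 14.7 to 45.7 CPM in *nonstop* and 58.0 to 122 CPM in *sgf11* (log2 fold change -1.29), and *Eh*, which encodes eclosion hormone, whose libraries overlapped. The call of *Nplp1* was lost without *nonstop* replicate 2 or 4 or *sgf11* replicate 2, 3 or 4, and that of *Eh* without *nonstop* replicate 1, 2 or 4 or *sgf11* replicate 1 or 3 (largest FDR = 0.0283). The transporters *dmGlut* and *Ncc69* were lower in *nonstop*, and were named after their values were seen. *dmGlut*, a glutamate transporter gene, was at 11.6 to 17.6 CPM in *nonstop*, 23.4 to 34.1 CPM in *sgf11* and 42.9 to 52.6 CPM in wild type, and *Ncc69*, a sodium-potassium-chloride cotransporter gene, was at 120 to 154 CPM in *nonstop*, 192 to 277 CPM in *sgf11* and 295 to 324 CPM in wild type.

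*TpnC73F*, a troponin C gene, was the only called gene of 17 muscle genes, at 0.963 to 3.23 CPM in *nonstop*, 10.7 to 17.7 CPM in *sgf11* and 1.64 to 2.63 CPM in wild type (log2 fold change -2.50, FDR = 1.44e-05). *Spn77Bc* was the only called serpin gene of 20 (log2 fold change -3.34), and like *Hsp70Ba* it was over 1 CPM in the *sgf11* libraries alone. At 2.11% called over all genes tested, the muscle list and the serpin list each hold less than 1 called gene. None of 18 neuroblast and progenitor genes, 19 photoreceptor and eye disc genes, 13 hemocyte genes and 9 tracheal genes was called, where 2.11% over all genes gives less than 1 in each list. Their medians were 0.14, 0.17, -0.25 and 0.31.

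Of 190 named noncoding RNA genes, 3 were higher and 6 were lower in *nonstop*, beside 0.823% higher and 1.28% lower over all genes tested. *lncRNA:CR40469* (X) was at 28.9 to 36.9 CPM in *nonstop*, 5.56 to 7.91 CPM in *sgf11* and 7.63 to 13.6 CPM in wild type (log2 fold change 2.29, SE 0.17, FDR = 1.22e-07). It and the repeats that follow were named after their values were seen. Of 9 genes tested on the Y chromosome, 4 were called, all lower in *nonstop*, beside 1.28% called lower over all genes tested. All 4 were copies of the *Su(Ste)* repeat, which is a source of small RNAs that silence *Stellate* in the male germ line. The 4 copies were at 0.413 to 4.58 CPM in *nonstop*, 2.58 to 15.5 CPM in *sgf11* and 0.290 to 2.18 CPM in wild type, and their log2 fold changes lay between -2.004 and -1.73. They share sequence and are not independent, and each lost the call in 5 to 9 of the 12 fits with a library left out, those without *nonstop* replicate 1, 3 or 4 or *sgf11* replicate 2 or 3 in every case (largest FDR = 0.0432).

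Other genes of the Y chromosome and of sex were also measured. The summed level of 6 protein-coding Y genes, none of which passed the filter, was 0 to 0.278 CPM in *nonstop*, 0.388 to 0.909 CPM in *sgf11* and 0 to 0.315 CPM in wild type. *lncRNA:roX1*, an RNA of the male dosage compensation complex, was at 1184 to 1772 CPM in *nonstop*, 1928 to 2330 CPM in *sgf11* and 856 to 1376 CPM in wild type, with no overlap between the mutants, and was not called (log2 fold change -0.55, FDR = 0.0510). *lncRNA:roX2* was at 21.6 to 30.4 CPM in *nonstop* and 23.3 to 41.2 CPM in *sgf11* (log2 fold change -0.29, FDR = 0.441). None of the 12 sex and dosage compensation genes tested was called, *Sxl*, *tra*, *dsx*, *fru* and *msl-2* included. The part of the sex of the pooled larvae in these values was not tested.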

How the data were processed

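Per the labels and the study's methods, the authors trimmed paired reads with Trimmomatic 0.32, aligned them to BDGP5 with TopHat2 2.0.13 and Bowtie2 2.2.4, and counted whole read counts per gene with HTSeq 0.6.1 in union mode without strand. The deposited counts per gene were used, and 2 deposited tables of the authors' own comparisons (fold changes, p-values and FDR against wild type) were not. Entries that name no gene, 96.1% to 96.7% of the counts in a library, were left out. How many larvae of each sex were pooled is not given in the sources used here, and replicates were separate pools.

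Genes over 1 CPM of gene counts in at least 4 of 12 libraries were kept. All 12 libraries were fitted together, with TMM factors, in edgeR 4.0.16 (R 4.3.3), and *nonstop* was tested against *sgf11* by the quasi-likelihood test with Benjamini-Hochberg adjustment over 9966 genes and an FDR under 0.01 (biological coefficient of variation 0.154). CPM values use TMM-scaled library sizes, and fold changes have edgeR's prior count of 0.125. SE is the absolute log2 fold change divided by the square root of the quasi-likelihood F statistic. With no count in a group a floor of 3 counts over the group gave a lower bound, and with 1 to 3 counts a 95% binomial (Clopper-Pearson) interval was given. Single totals were compared by exact two-sided permutation tests (scipy 1.17.1).

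Symbols, arms and gene order come from the BDGP6 annotation, which held 15002 of 15682 IDs, and no coordinates are given because the counts were made on BDGP5. Named genes are *not*, *Sgf11* and the 2 genes tested on each side of them, the 10 highest and 10 lowest fold changes among called genes whose mutant libraries did not overlap and whose mean was above 1 CPM, the 6 lowest p-values, called genes within 50 genes tested of either locus, up to 4 called members of each gene list, genes that passed against wild type in opposite directions, and the members of the transgene, deubiquitinase module and sex lists. Names outside this rule, and the members of the runs, were picked with their values in view. The members and gene lists were chosen with earlier results of these data known. Alternatives were edgeR's exact test, DESeq2 1.42.0, RLE factors, library sizes without TMM factors, no filter, a mean log2 CPM above 4.5, a fit of the 8 mutant libraries, a looser FDR of 0.05, a replicate-number block and each mutant library left out, and, added after the data were seen, each wild-type library left out.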

Additional observations from a re-analysis of the deposited data

Results flagged for a closer look

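For 7 genes the change from wild type had opposite signs in *nonstop* and in *sgf11*, and the direct test between the mutants, which is the test of that difference, gave log2 fold changes of 9.73 for *CG32437*, 2.55 for *CG11594*, 1.78 for *IntS12*, -0.69 for *CG4511*, -1.59 for *RhoL*, -2.82 for FBgn0264718 and -3.16 for *Cht5*.

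In 26 of 396 groups of 4 libraries of a named gene (6.57%), 1 library lay far from the other 3 by Dixon's criterion, and chance alone gives about 5%. Among *nonstop* libraries, replicate 1 stood apart at *hpRNA:CR32207* (0 CPM), *Spn77Bc* (0.244 CPM) and *CG8745* (25.1 CPM), replicate 2 at *tRNA:Arg-TCG-2-4* (0.972 CPM), *Ctns* (37.9 CPM), *pst* (79.3 CPM) and *CG7884* (43.7 CPM), replicate 3 at *Spt20* (30.4 CPM), and replicate 4 at *CG13810* (2.12 CPM), *CG32199* (1.61 CPM) and *pbl* (115 CPM). Among *sgf11* libraries, replicate 1 stood apart at *Eip78C* (10.4 CPM), *mle* (48.7 CPM), *Cpr51A* (9.41 CPM) and *CG18577* (0.0922 CPM), replicate 2 at *CG31157* (1.67 CPM) and *CG32437* (0.152 CPM), replicate 3 at *y* (4.98 CPM), and replicate 4 at *CG10920* (16.3 CPM), *Spt20* (44.0 CPM) and *5-HT2A* (1.55 CPM). Among wild-type libraries, replicate 1 stood apart at *CG9297* (2.91 CPM) and FBgn0036794 (0.0910 CPM), replicate 2 at *CG10920* (0.110 CPM) and *Grl62c* (0.110 CPM), and replicate 3 at *bru3* (70.5 CPM). Several of these values are a single read above libraries at 0. At *CG10920* the 3 other *sgf11* libraries were at 49.1 to 54.2 CPM, and all 4 lay above every *nonstop* library.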

How the results depend on the processing

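The 210 calls (82 higher and 128 lower in *nonstop*) became 343 (153 higher) with edgeR's exact test, 335 (155 higher) with DESeq2, 97 (40 and 57) with a mean log2 CPM above 4.5 and 386 (173 and 213) at an FDR under 0.05. RLE factors gave 214 calls, no filter 248, the 8 mutant libraries alone 175 and library sizes without TMM factors 195. With library sizes the share of calls higher in *nonstop* was 28.2%, against 39.05% with TMM, and the median of all genes was -0.09 against -0.01. With 1 mutant library left out there were 122 to 165 calls, and with 1 wild-type library left out 202 to 221 (over all 12 such fits 55 to 91 higher and 67 to 130 lower). Without 1 *sgf11* library 12 of the 210 genes no longer passed the filter on 4 libraries, which sets part of that loss. Chromosome 3 held 68.1% of placed calls, 63.3% to 70.3% under 4 other settings and 69.6% to 77.0% with a mutant library left out. The share that passed against wild type in at least 1 mutant, 92.9%, stayed at 92.3% to 95.6%. Of 40 lists, 9 had totals that did not overlap between the mutants, 5 with library sizes and 9 to 12 with a library left out. The replicate number was no pairing, since same-numbered libraries correlated at -0.075 to 0.12 and 2 of 4 *nonstop* libraries correlated best with their own number. A replicate block gave 183 calls (71 higher, 112 lower). No named gene that was called reversed under any alternative. Named genes that were not called reversed near 0: with library sizes *tra2* (-0.044) and *mof* (-0.031), and, over the fits with 1 library left out, *repo* (-0.13 to 0.057), *w* (-0.17 to 0.075), *msl-3* (-0.12 to 0.032), *y* (-0.37 to 0.030), *tra* (-0.15 to 0.040), *tra2* (-0.054 to 0.18), *mof* (-0.053 to 0.16), *dsx* (-0.086 to 0.41) and *CG32202* (-0.16 to 0.65). Depth limits genes near 1 CPM, where 1 CPM is 6.60 to 11.8 reads.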
